A study of Mus musculus with 4 samples.

Results

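Bone morphogenetic proteins (BMPs) are secreted ligands that bind pairs of type I and type II receptor kinases. The activated receptors phosphorylate Smad1, Smad5 and Smad9, which enter the nucleus with Smad4 and switch on target genes, among them the Id genes. Id proteins (inhibitors of DNA binding) have a helix-loop-helix but no basic region, so they tie up the E proteins that other bHLH factors need as partners. In the oligodendrocyte lineage BMP signalling and the Id proteins are known to hold back differentiation and to favour astrocyte fate. The 10 genes followed here were chosen by symbol and are the ligands Bmp4 and Bmp7, the type I receptor Bmpr1a, the decoy receptor Bambi, the inhibitory Smads Smad6 and Smad7, and the targets Id1, Id2, Id3 and Id4. All 10 were found among the 54348 rows of the deposited expression table, 1 row each.

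Live tdTomato-positive cells were sorted from forebrains, stripped of pial membranes, of mice killed at postnatal day 4, and full-length cDNA was amplified from their RNA for sequencing. The fusion group carried PdgfraCreER, MN1:BEND2 and AI14, and the control group PdgfraCreER and AI14, with 2 libraries in each. All mice received tamoxifen on postnatal days 0 and 1, which releases the CreER recombinase to act in Pdgfra-expressing cells and so turns on the AI14 reporter tdTomato in them and their progeny. Pdgfra marks oligodendrocyte precursors but also some fibroblasts, and the labels tie no library to a mouse. The p-values therefore rest on how far the libraries of a group differ, and that difference may be technical only. The comparison asks how transcripts differ in this lineage when MN1:BEND2, a fusion gene found in astroblastoma, is present.

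The table gives TPM, a length-corrected share of transcripts that sums to the same total in every library, so depth is unknown. The groups differed beyond the genotype. Mitochondrially encoded genes held 48.7% and 26.2% of TPM in the fusion libraries, against 10.1% and 7.30% in the control libraries. The sum of 4 Y chromosome genes was at most 0.281 TPM in a fusion library and at least 156 TPM in a control library, so sex and genotype cannot be told apart. Bend2 was found at 3.82 and 8.72 TPM in the fusion libraries and listed at 0 in both control libraries. The 8 oligodendrocyte precursor markers summed to 453 and 578 TPM in fusion and to 1261 and 1616 TPM in control libraries, none of them at 0 in a library. The median log2 change of all 12871 tested genes was -1.41 (fusion minus control, of TPM + 1), and -0.15 after the libraries were rescaled to a common median ratio. For this reason the changes of the 7 tested genes below are given with their distance from -1.41 and with their value after rescaling, and those of other pathway genes with their rescaled value where that alters the call.

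Of the 10 genes, 7 reached at least 1 TPM in at least 2 libraries and were tested with limma; Id4, Smad6 and Smad7 did not. Bmp4, Id1 and Id3 were lower in fusion libraries at an adjusted p under 0.05, Bambi was higher, and Id2, Bmp7 and Bmpr1a did not pass. Among all tested genes 56.3% were called, 51.3% lower and 4.95% higher, so 3 lower calls among 7 are no more than the background share. After rescaling, 1 of the 7 was lower (Bmp4) and 1 higher (Bambi), where 33.0% of all tested genes were called, 18.6% lower and 14.3% higher. Bambi entered the test through its fusion values alone, so that it could only be tested because it was high there. On the deposited scale the calls were lost when either control library was left out, a fit in which 1 control library stands for its group. Without control replicate 1 the changes of Bmp4, Id1, Id3 and Bambi were -4.34, -1.91, -2.36 and 1.18. Without control replicate 2 they were -4.30, -2.28, -1.83 and 0.92.

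**Figure D1:**
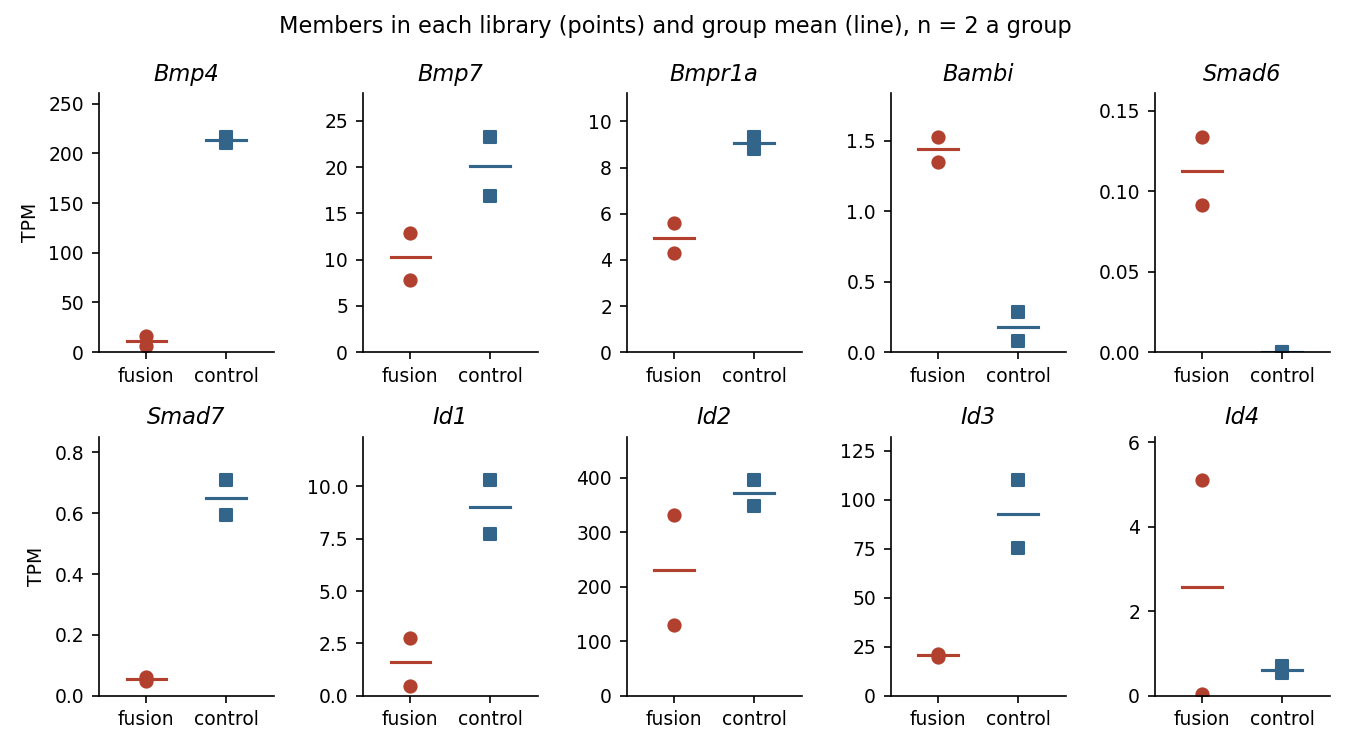
TPM of the 10 genes in each library (points) with the mean of the 2 libraries of a group (lines); each panel has its own axis from 0. Both fusion libraries lie below both control libraries for 7 genes, above them for Bambi and Smad6, and on both sides of them for Id4.

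Both fusion libraries lay below both control libraries for 7 of the 10 genes and above them for 2. Over all tested genes these shares were 71.1% and 10.2%. On rescaled values, 2 of the 10 lay below (Bmp4 and Smad7), 5 above (Id2, Bmp7, Bmpr1a, Bambi and Smad6), and Id1, Id3 and Id4 overlapped between groups. In the tested genes, 38.8% then lay below and 31.3% above.

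Bmp4 had the largest change of the set on the deposited scale, though with GC and length correction Bambi changed more (2.32, against -2.18 for Bmp4). Bmp4 encodes a ligand that drives Smad1/5/9 signalling and in the oligodendrocyte lineage is known as a transcript of cells leaving the precursor stage. Bmp4 (ENSMUSG00000021835.15, chromosome 14, 46383520 to 46390669, minus strand, GRCm38) had 5.84 and 15.8 TPM in fusion libraries, against 211 and 217 TPM in control libraries. The fusion mean was 5.07% of the control mean, and the groups were far apart. Means were 10.8 ± 7.06 TPM in fusion and 214 ± 3.84 TPM in control libraries (SD, n = 2). The log2 change was -4.32 ± 0.52 (SE, adjusted p = 0.00393, limma), which lies -2.92 from the median of all genes. After rescaling Bmp4 was again lower, with a log2 change of -2.63 ± 0.37 (adjusted p = 0.0127), and over the 15 alternative settings its adjusted p ran from 0.000437 to 0.118. It passed in 13 of the 15; without control replicate 1 the change was -4.34 (adjusted p = 0.102) and without control replicate 2 it was -4.30 (adjusted p = 0.118). In sorted bulk samples, fewer cells that make a transcript and less transcript per cell cannot be told apart. On the other strand Bmp4 overlaps the gene models Gm15217 and Gm15222. Gm15217 was listed at 0 in both fusion libraries and had 2.80 and 3.59 TPM in control libraries. Gm15222 had 0 and 2.17 TPM in fusion and 4.56 and 9.56 TPM in control libraries. The labels name no strand-specific kit, so reads of the 3 cannot be told apart by strand, though both models were far below Bmp4 in the control libraries.

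Since Bmp4 carried the clearest difference, the 250 bases before its RefSeq start are shown (GRCm38.p6, chr14:46390670-46390919, minus strand), with the match to the Smad-binding letters GTCT or its reverse complement AGAC in capitals.
Bmp4: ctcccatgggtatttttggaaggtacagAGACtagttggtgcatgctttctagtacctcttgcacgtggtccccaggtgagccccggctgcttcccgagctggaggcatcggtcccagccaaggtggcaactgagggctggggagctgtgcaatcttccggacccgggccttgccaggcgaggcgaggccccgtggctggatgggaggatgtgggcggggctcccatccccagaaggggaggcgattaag
The window has 1 match, 222 to 219 bases before the start, and no match to GGCGCC, the GC-rich letters that Smad1 and Smad5 bind. Of 32851 RefSeq promoter windows of this length, 82.9% hold GTCT or AGAC and 9.59% hold GGCGCC on either strand.

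Bmp7, the other ligand of the set, did not pass. Bmp7 (chromosome 2, 172868012 to 172940321) encodes a related BMP that signals through the same type I receptors. It had 7.76 and 12.9 TPM in fusion libraries, against 16.9 and 23.3 TPM in control libraries. The groups did not overlap, but the change of -0.92 ± 0.44 did not pass (SE, adjusted p = 0.131, limma) and lay 0.49 above the median of all genes. Without fusion replicate 2 Bmp7 was called lower (change -1.25, adjusted p = 0.0349). On rescaled values it turned to 0.73 ± 0.33 (adjusted p = 0.158; 0.0349 to 0.493 over all alternatives).

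Ratios within a library do not move when the library is rescaled, and they set the ligands apart. The ratio of Bmp4 to Bmp7 was 0.753 and 1.23 in fusion libraries, against 12.5 and 9.29 in control libraries. On the TPM scale, which is per length, Bmp4 was thus above Bmp7 in both control libraries and in fusion replicate 2, and below it in fusion replicate 1. Relative to Pdgfra, the gene of the lineage driver, Bmp4 stood at 0.0473 and 0.0825 in fusion libraries, against 0.627 and 0.504 in control libraries. Relative to Sox10, a transcription factor of the whole oligodendrocyte lineage, it stood at 0.471 and 0.915 in fusion and 3.12 and 2.12 in control libraries. Relative to Gpr17, a receptor of cells that commit to differentiate, it stood at 0.348 and 0.798 in fusion and 3.22 and 2.45 in control libraries. The Bmp4 fall was therefore larger than that of each of these 3 lineage genes in every pairing of libraries. Bmp7 relative to Pdgfra was 0.0629 and 0.0674 in fusion libraries and 0.0502 and 0.0543 in control libraries, close in all 4. With 2 libraries against 2 an exact permutation test cannot give a p below 0.333, so no test was made of these ratios.

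**Figure D2:**
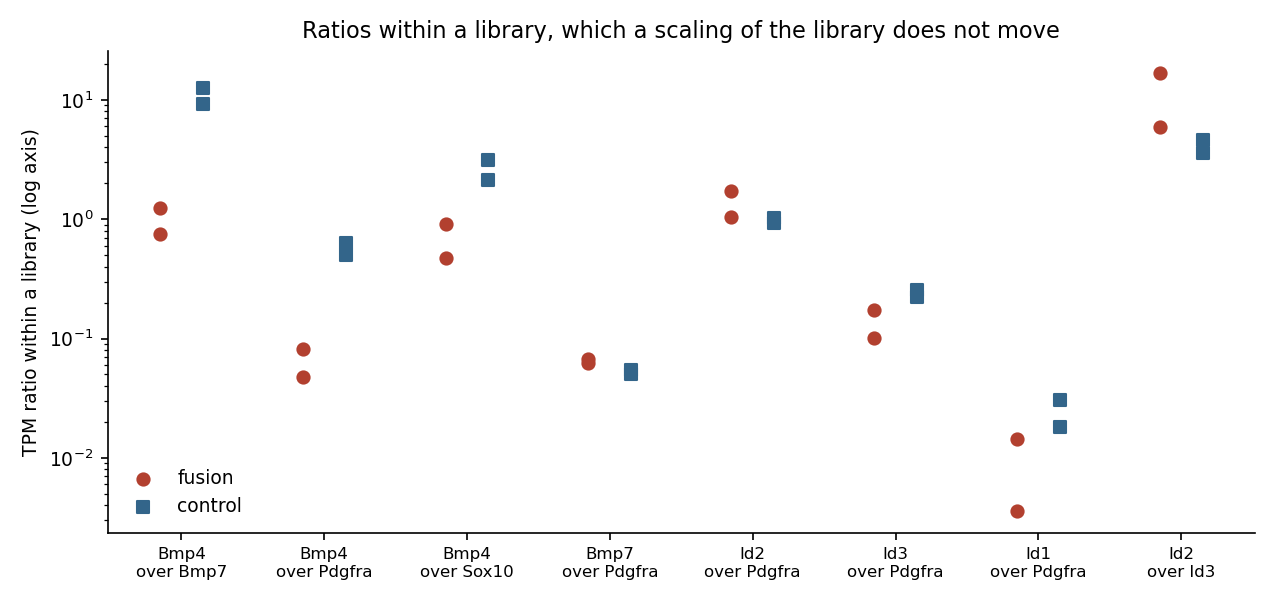
Ratios of TPM between pairs of genes within each library, on a log axis; circles are fusion and squares control libraries. The 3 ratios of Bmp4 lie lower in both fusion libraries than in both control libraries, while Bmp7 over Pdgfra runs from 0.0502 to 0.0674 over the 4 libraries.

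Of 13 BMP ligand genes, 4 were tested. Bmp4 was the 1 that passed on the deposited scale, where 51.3% of all tested genes were called lower. The 13 summed to 18.7 and 34.1 TPM in fusion libraries, against 230 and 244 TPM in control libraries. Bmp4 made up 31.3% and 46.5% of that sum in fusion libraries and 91.9% and 88.7% in control libraries. Bmp6 had 2.54 and 2.72 TPM in fusion and 0.865 and 1.80 TPM in control libraries (log2 change 0.67, adjusted p = 0.180; 1.77 and 0.0304 after rescaling). Bmp5 had 0.829 and 1.81 TPM in fusion and 0.179 and 1.33 TPM in control libraries, which overlap. Gdf2, Gdf6 and Gdf7 were listed at 0 in every library.

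Among receptors, 1 coreceptor gene fell and Bmpr1a did not pass. Bmpr1a (chromosome 14, 34410734 to 34503341) encodes the type I receptor kinase ALK3, through which Bmp4 signals. It had 5.58 and 4.30 TPM in fusion libraries, against 9.34 and 8.81 TPM in control libraries. The groups did not overlap. Its change of -0.77 ± 0.42 did not pass (SE, adjusted p = 0.168, limma), lay 0.64 above the median of all genes, and turned to 0.77 ± 0.49 on rescaled values (adjusted p = 0.283; 0.0831 to 0.734 over all alternatives). The type II receptor Bmpr2 had 5.41 and 4.18 TPM in fusion and 6.85 and 7.74 TPM in control libraries. The ratio of Bmpr1a to Bmpr2 was 1.03 in both fusion libraries, and 1.36 and 1.14 in control libraries. Acvr1, another type I receptor, had 5.03 and 5.11 TPM in fusion and 5.57 and 7.09 TPM in control libraries. Of 7 tested receptors and coreceptors, 1 fell and 6 did not pass, where 51.3% of all tested genes were called lower. The 1 that fell was Rgma, a membrane-anchored BMP coreceptor also known for axon guidance, with 0.439 and 0.189 TPM in fusion and 3.12 and 4.28 TPM in control libraries (log2 change -1.83, adjusted p = 0.00837, limma; -0.88 and 0.116 after rescaling). Bmpr1b, the other BMP type I receptor of neural cells, was at 0.355 TPM or less in every library. The ratio of Bmp4 to Bmpr1a was 1.05 and 3.68 in fusion libraries, against 22.6 and 24.6 in control libraries, so ligand and receptor transcripts changed by unequal amounts.

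The inhibitors of the set were low in all libraries. Bambi (chromosome 18, 3507923 to 3516404) encodes a receptor-like membrane protein without a kinase domain that blocks BMP and TGF-beta receptors. It had 1.35 and 1.53 TPM in fusion libraries, against 0.287 and 0.0762 TPM in control libraries, with no overlap. The log2 change was 1.05 ± 0.23 (SE, adjusted p = 0.0155, limma), which lies 2.46 above the median of all genes, and 1.70 ± 0.28 after rescaling (adjusted p = 0.0160). Over 14 alternatives its adjusted p ran from 0.00622 to 0.101. It did not pass without control replicate 1 (change 1.18, adjusted p = 0.0591), without control replicate 2 (0.92, adjusted p = 0.101) or with no filter on low values (1.05, adjusted p = 0.0671), and a stricter filter, a mean of 5 TPM or more, left it untested. A processed pseudogene, Bambi-ps1 (chromosome 2, 122466935 to 122467526), matches the Bambi transcript with 88.6% identity over 597 aligned bases. Bambi-ps1 moved the other way, with 2.88 and 0 TPM in fusion libraries and 17.6 and 10.4 TPM in control libraries (log2 change -2.88, adjusted p = 0.0255, limma; -1.58 and 0.307 after rescaling). The sum of Bambi and Bambi-ps1 was 4.23 and 1.53 TPM in fusion libraries, against 17.9 and 10.4 TPM in control libraries. The split of shared reads between gene and pseudogene is not known, so the value of Bambi is uncertain.

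Smad6 and Smad7 encode inhibitory Smads, which are themselves induced by BMP and TGF-beta signals. Smad7 had 0.0621 and 0.0490 TPM in fusion libraries, against 0.594 and 0.709 TPM in control libraries. The groups did not overlap, and with no filter on low values, the only setting in which it was tested, Smad7 passed (log2 change -0.65, adjusted p = 0.0417). Smad6 had 0.0914 and 0.134 TPM in fusion libraries and was listed at 0 in both control libraries (adjusted p = 0.0894 with no filter). At such levels each value rests on little signal, and depth is unknown.

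Markers of other cell types moved in the same libraries as Bambi. Among all tested genes 4.95% were called higher and 51.3% lower (14.3% and 18.6% after rescaling). Of 9 tested fibroblast markers of meninges and vessels, 4 were higher in fusion libraries and none lower. Foxc1, 1 of the 4, reached 1 TPM in fusion libraries only and could be tested only through them. Slc6a13 (0.827 and 5.55 TPM in fusion, 4.45 and 14.0 TPM in control libraries), Dcn and Lum overlapped between groups. The list of 10 summed to 535 and 1069 TPM in fusion and to 58.4 and 162 TPM in control libraries. Mgp made up most of that sum in the fusion libraries, at 364 and 717 TPM, and Cemip was listed at 0 in both. Of 9 tested microglia and macrophage markers, 4 were higher and 1 lower. The 1 lower was P2ry12, listed at 0 in both fusion libraries and tested only through its control values. The 10 summed to 482 and 709 TPM in fusion and to 88.1 and 22.6 TPM in control libraries. Fcer1g, at 327 and 480 TPM, and Tyrobp, at 105 and 116 TPM, made up most of that sum in the fusion libraries. C1qa, which did not pass, had 1.08 and 0.851 TPM in fusion and 6.53 and 2.15 TPM in control libraries. Cx3cr1, which was not tested, had 0 and 0.112 TPM in fusion and 0.697 and 0.854 TPM in control libraries. Csf1r and Tmem119 overlapped between groups. Of 8 endothelial markers, 1 was tested, Cdh5, and it was called higher. It had 1.11 and 1.13 TPM in fusion and 0.252 and 0.152 TPM in control libraries. Cdh5 could be tested only because it was high in the fusion libraries. The 8 summed to 3.24 and 5.88 TPM in fusion and to 1.24 and 1.46 TPM in control libraries. Slco1a4 was listed at 0 in both fusion libraries, and Pecam1 and Cldn5 overlapped between groups. Tek, at 3.55 TPM in fusion replicate 2, and Ly6c1, at 1.41 TPM in fusion replicate 1, were each at 0 in the other fusion library. The part of these cells in the Bambi values was not tested.

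The Id genes, the best known targets of BMP signalling, did not move as 1 group. Id2 was the most abundant of the 4 in every library, ahead of Id3. Id2 (chromosome 12, 25093799 to 25097140) is known to restrain oligodendrocyte differentiation. It had 129 and 331 TPM in fusion libraries, against 348 and 396 TPM in control libraries. Fusion replicate 2 was close to the control libraries and fusion replicate 1 was well below them. The change of -0.84 ± 0.53 did not pass (SE, adjusted p = 0.220, limma). It passed without fusion replicate 2 (change -1.52, adjusted p = 0.00408), while without fusion replicate 1 it was -0.17 (adjusted p = 0.376), so fusion replicate 1 decided the value. Fusion replicate 1 was also the library with 48.7% mitochondrially encoded TPM, whose part in the Id2 value was not tested. After rescaling Id2 turned to 0.92 ± 0.34 (adjusted p = 0.0988; 0.00408 to 0.643 over all alternatives), with 281 and 478 rescaled TPM in fusion and 195 and 191 in control libraries. A processed pseudogene that matches 380 bases of Id2 with 91.6% identity, Gm6175, was listed at 0 in all 4 libraries.

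Id3 and Id1 fell on the deposited scale. Id3 (chromosome 4, 136143497 to 136145755) had 21.5 and 19.6 TPM in fusion libraries, against 75.5 and 110 TPM in control libraries. The fusion libraries agreed closely and lay far below both control libraries. The log2 change was -2.10 ± 0.37 (SE, adjusted p = 0.00820, limma), or -0.69 from the median of all genes. Id1 (chromosome 2, 152736251 to 152737410), an early and direct target of BMP receptors in many cell types, had 0.445 and 2.77 TPM in fusion libraries, against 10.3 and 7.74 TPM in control libraries. Its log2 change was -2.09 ± 0.60 (SE, adjusted p = 0.0324, limma), also -0.69 from the median. With a pseudocount of 0.1 TPM in place of 1 the changes were -2.85 for Id1 and -2.14 for Id3, and the ratio of Id3 to Id1 was 48.4 and 7.07 in fusion libraries, against 7.31 and 14.2 in control libraries, so the near match at 1 TPM rests on that choice. Id1 was called in 7 of the 15 alternatives and Id3 in 10; Id1 was also lost with the pseudocount of 0.1 TPM (adjusted p = 0.0740), with no filter (0.0964) and without mitochondrial and ribosomal protein genes (0.0717). Neither passed after rescaling, where Id3 changed by -0.37 ± 0.36 (adjusted p = 0.485; 0.00636 to 0.725 over all alternatives) and Id1 by -0.85 ± 0.62 (adjusted p = 0.344; 0.00912 to 0.504), and rescaled values of the groups overlapped for both. Neither passed without control replicate 1 (Id3 -2.36, adjusted p = 0.0914; Id1 -1.91, adjusted p = 0.252) or without control replicate 2 (Id3 -1.83, adjusted p = 0.130; Id1 -2.28, adjusted p = 0.234). Without fusion replicate 1, Id1 changed by -1.40 (adjusted p = 0.0440) and Id3 by -2.16 (adjusted p = 0.0103).

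Most of the tested neuron markers were lower in the same libraries as Bmp4, Id1 and Id3, while markers of astrocytes and radial glia were mixed. Among all tested genes 51.3% were called lower (18.6% after rescaling), and the median log2 change was -1.41. The list medians were -1.68 for neurons and -1.20 for astrocytes and radial glia. Of 6 tested neuron markers 4 were lower and none higher, and 2 of them, Tubb3 and Syt1, were lower also after rescaling. Syt1 reached 1 TPM in control libraries only, so it could be tested only through the group where it is high. Stmn2 and Gad1, which did not pass, overlapped between groups. The list of 8 summed to 50.6 and 34.1 TPM in fusion and to 206 and 202 TPM in control libraries. Rbfox3 and Slc17a7 were each at 0 in fusion replicate 2. Of 7 tested markers of astrocytes and radial glia 4 were lower and none higher, and after rescaling 1 was lower and 2 were higher. That list of 8 summed to 9039 and 17238 TPM in fusion and to 9559 and 9521 TPM in control libraries, nearly all of it Fabp7, and none of the 8 was at 0. The part of these cells in the Bmp4, Id1 and Id3 values was not tested.

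Relative to Pdgfra in the same library, Id3 stood at 0.175 and 0.102 in fusion libraries, against 0.224 and 0.256 in control libraries. Id1 stood at 0.00360 and 0.0144 in fusion and 0.0307 and 0.0180 in control libraries. Id2 stood at 1.04 and 1.72 in fusion and 1.03 and 0.922 in control libraries. Both fusion libraries thus lay below both control libraries for Id3 and Id1 over Pdgfra, and above them, in fusion replicate 1 by a small margin, for Id2. The ratio of Id2 to Id3 was 5.97 and 16.9 in fusion libraries, against 4.61 and 3.60 in control libraries, and that of Id2 to Id1 was 289 and 119 in fusion, against 33.7 and 51.1 in control libraries. Within the summed Id transcripts, which came to 156 and 353 TPM in fusion and 434 and 514 TPM in control libraries, Id2 held 82.6% and 93.7% in fusion and 80.1% and 77.0% in control libraries. Id3 held 13.8% and 5.54% in fusion and 17.4% and 21.4% in control libraries.

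Id4, which in the brain is linked to neural stem cells and to restraint of the oligodendrocyte lineage, split the fusion libraries. Id4 (chromosome 13, 48261228 to 48266026) had 5.10 TPM in fusion replicate 1 and 0.0391 TPM in fusion replicate 2, against 0.543 and 0.691 TPM in control libraries. The fusion values enclosed the control values, and Id4 was not tested on the filtered table (adjusted p = 0.654 with no filter). Ttr, a choroid plexus transcript, had 107 and 15.4 TPM in the same fusion libraries and 0 and 0.255 TPM in control libraries, while Folr1 and Kcnj13, other markers of that list, were listed at 0 in all 4. Of 7 ependyma and choroid plexus markers 2 were tested, Ttr, called higher, and Rsph1, called lower. Each reached 1 TPM only in the group where it is high and could be tested only through that group. The list of 7 summed to 107 and 15.4 TPM in fusion and to 2.40 and 3.08 TPM in control libraries. The part of these cells in the Id4 values was not tested.

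To set the promoters of Id2 and Id3 beside that of Bmp4, a stretch of 30 bases around each motif match in the 250 bases before the RefSeq start is shown, motif in capitals, 5′ to 3′ on the gene's strand (GRCm38.p6; Id2 chr12:25096306-25096335 and chr12:25096099-25096128, minus strand; Id3 chr4:136143643-136143672 and chr4:136143741-136143770, plus strand).
Id2 distal, GGCGCC: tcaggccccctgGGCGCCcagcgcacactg
Id2 proximal, AGAC: gagtgcacataaaAGACgccccgcccggct
Id3 distal, AGAC: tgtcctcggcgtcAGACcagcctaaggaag
Id3 proximal, GTCT: tggacccttggcgGTCTgttttgaataagg
In this window Id2, which did not pass, has 1 match of each kind, and Id3, which fell on the deposited scale, has 2 of GTCT or AGAC and none of GGCGCC. A match is no more than a run of letters, and the share of all promoters given above applies to it. The RefSeq starts used for Id2 and Id3 differ from the ends of the gene spans given above. Their windows therefore fall inside those spans, while the Bmp4 window lies before its span. Promoter windows of 6 of the 10 genes were matched by symbol, and those of Id1, Bmp7, Smad7 and Bambi were not. Of the 6, the windows of Id4, Smad6 and Bmpr1a are not shown. Id4 and Bmpr1a each have 1 match to GGCGCC and none to GTCT or AGAC. Smad6 has 1 match to GTCT or AGAC and none to GGCGCC.

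**Figure D3:**
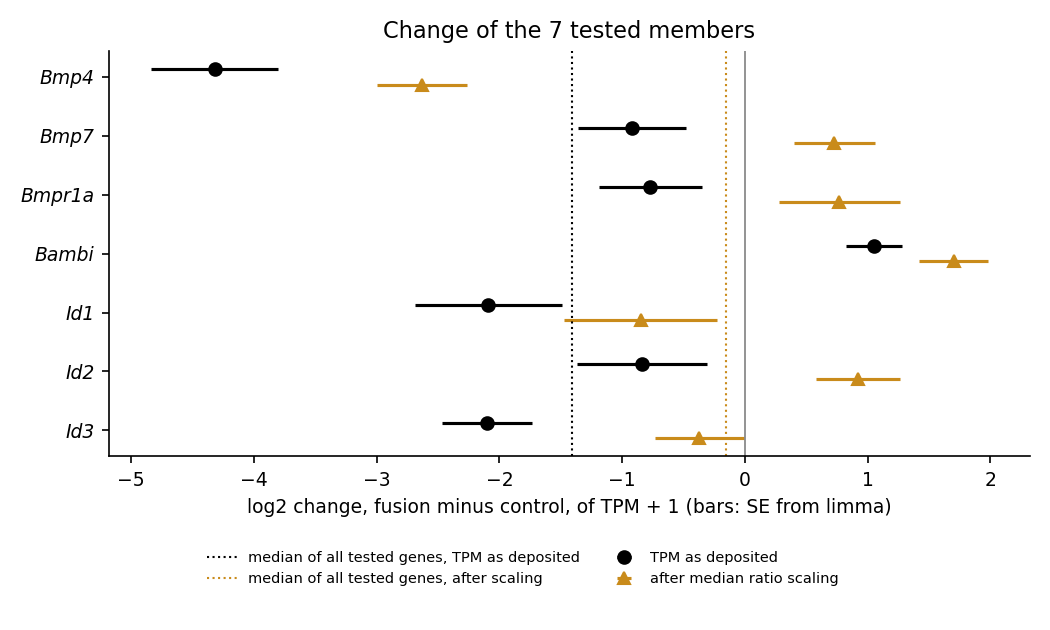
Log2 change of TPM + 1, fusion minus control, of the 7 tested genes, with SE bars from limma, as deposited (circles) and after median ratio scaling (triangles); dotted lines mark the median of all tested genes on each scale. Bmp4 stays left of 0 and Bambi right of 0 on both scales, whereas Bmp7, Bmpr1a and Id2 cross 0 with rescaling.

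In order of mean TPM, the control libraries had Id2, Bmp4, Id3, Bmp7, Bmpr1a, Id1, Smad7, Id4, Bambi and Smad6. Bmpr1a and Id1 overlapped in that order, and so did Smad7 and Id4. In the fusion libraries the order was Id2, Id3, Bmp4, Bmp7, Bmpr1a, Id4, Id1, Bambi, Smad6 and Smad7, where Bmp4 overlapped Bmp7, Id4 overlapped both neighbours, and Id1 overlapped Bambi. By Euclidean distance of log2(TPM + 1) over the 4 libraries, among 77 other genes of the pathway lists, the nearest to Id3 was the E protein gene Tcf12 (0.57) and the nearest to Id1 was Tgfb2 (0.70). The nearest to Bmpr1a was Bmpr2 (0.43), to Bambi Msx1 (0.43), to Smad6 Tgfb1 (0.14), to Smad7 Tgfb3 (0.44), to Bmp7 Skil (0.94) and to Id4 Nog (1.21). Bmp4 and Id2 had no near neighbour, with Tcf4 at 2.32 and Olig1 at 2.35 the closest. The distance takes in the level of a gene as well as its change. Genes near 0 TPM in all libraries, such as Smad6 and Tgfb1, therefore lie close together by level alone.

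The wider pathway was read from lists of ligands, receptors, antagonists, Smads, inhibitors, targets, bHLH partners and the TGF-beta branch. Of 68 further genes on these lists, 42 were tested, and 5 rose, 11 fell and 26 did not pass, with a median log2 change of -0.58. That is 11.9% higher and 26.2% lower, beside 4.95% and 51.3% of all tested genes. After rescaling 12 were higher and 2 lower (28.6% and 4.76%, beside 14.3% and 18.6% of all tested genes), with a median of 0.92, while the median of all tested genes was -0.15. Of the 5 that rose, 4 reached 1 TPM in fusion libraries only (Fst, Msx1, Tgfbr2 and Tgfbr3), and of the 11 that fell, 4 did so in control libraries only (Bmper, Chrd, Rgma and Sostdc1). These 8 could be tested only through the group where they are high, and their calls and the counts above carry that limit. With no filter on low values, Fst, Bmper and Sostdc1 of the 8 were called (adjusted p = 0.0260, 0.0382 and 0.0216), and the other 5 had adjusted p from 0.0551 to 0.126. Of the 16 called, 7 were called in the same direction after rescaling: Fst, Tgfbr3, Bmper, Tgfbr2, Sostdc1, Tob1 and Msx1. Sostdc1 was the 1 of the 16 called without control replicate 1, and also without control replicate 2.

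Secreted antagonists, which bind BMPs outside the cell, moved in both directions. With 8 tested, 3 fell, 1 rose and the other 4 did not pass, where 51.3% of all tested genes were called lower and 4.95% higher. Fst, for follistatin, which traps activins and some BMPs, had 8.24 and 11.2 TPM in fusion libraries and was listed at 0 in both control libraries (adjusted p = 0.00384, limma; 0.0108 after rescaling). Sostdc1, for a secreted antagonist of BMP and Wnt signals, was the reverse, listed at 0 in both fusion libraries and at 11.9 and 12.8 TPM in control libraries (adjusted p = 0.00371; 0.0112 after rescaling; 0.0273 without control replicate 1 and 0.0324 without control replicate 2). Bmper, for a BMP-binding protein of the extracellular space, had 0.0151 and 0.382 TPM in fusion and 5.06 and 6.10 TPM in control libraries (log2 change -2.47, adjusted p = 0.00530; -1.62 and 0.0266 after rescaling). Fst and Bmper did not pass without control replicate 1 (adjusted p = 0.0945 and 0.0672) or control replicate 2 (0.109 and 0.0821). Chrd, for chordin, had 0.173 and 0.390 TPM in fusion and 1.34 and 1.35 TPM in control libraries (log2 change -0.88, adjusted p = 0.0264; -0.21 and 0.497 after rescaling), and did not pass without fusion replicate 1 (adjusted p = 0.0766). Nbl1, of the same antagonist family as gremlin, had 7.05 and 20.6 TPM in fusion and 0.471 and 3.89 TPM in control libraries (log2 change 2.30, adjusted p = 0.0577; 3.56 and 0.0183 after rescaling). Nog, for noggin, an antagonist that is also a BMP target, had 4.26 and 1.34 TPM in fusion and 0.319 and 0.697 TPM in control libraries (log2 change 1.23, adjusted p = 0.0731; 2.13 and 0.0700 after rescaling). Nog was called higher with quantile normalization (2.29, adjusted p = 0.0423, limma) and with GC and length correction (3.50, adjusted p = 0.00879). Twsg1, which binds chordin and BMPs, had 5.27 and 8.55 TPM in fusion and 7.33 and 11.7 TPM in control libraries, which overlap. The fibroblast and microglia marker sums given beside Bambi were higher in the same libraries as Fst, and their part in the Fst values was not tested.

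None of the 3 tested Smads that carry the BMP signal passed on the deposited scale (limma), and at an unadjusted p under 0.05 the count was also 0. After rescaling 1 of the 3, Smad1, was called higher (log2 change 1.78, adjusted p = 0.0434), as it was with quantile normalization (0.0353) and GC and length correction (0.0206), and Smad4 was called higher with GC and length correction (0.0381). Smad1 had 8.56 and 8.86 TPM in fusion and 4.93 and 10.6 TPM in control libraries, and Smad4 had 6.69 and 7.84 TPM in fusion and 9.13 and 10.4 TPM in control libraries. Smad5 had 1.98 and 6.57 TPM in fusion and 7.74 and 10.1 TPM in control libraries, with no overlap. Its log2 change was -1.05 (adjusted p = 0.181, limma) and 0.42 after rescaling (0.576), and ran from -1.73 to 0.45 over all settings. Of 8 tested intracellular inhibitors, 2 rose, Bambi and Tob1, and 6 did not pass. After rescaling 4 were higher. Over all tested genes 4.95% were called higher, and 14.3% after rescaling. Tob1, an antiproliferative protein that represses BMP Smads in bone cells, had 8.75 and 12.2 TPM in fusion and 2.96 and 3.94 TPM in control libraries (log2 change 1.36, adjusted p = 0.0468, limma; 2.80 and 0.0126 after rescaling). Ppm1a, a phosphatase of Smads, and Skil, a Smad corepressor, overlapped between groups on the deposited scale, at 12.5 and 21.0 and at 11.4 and 20.0 TPM in fusion and at 17.6 and 19.3 and at 18.1 and 16.0 TPM in control libraries. On rescaled values the groups did not overlap for either, and both were called higher, Ppm1a with a log2 change of 1.49 (adjusted p = 0.0260) and Skil with an adjusted p of 0.0313. Among 7 tested targets, Bambi and Msx1 rose, Id1, Id3 and Hey1 fell, and Id2 and Nog did not pass. The 3 lower calls are no more than the 51.3% of all tested genes called lower. After rescaling 2 of the 7 targets were higher and none lower. Msx1, a homeobox gene induced by BMPs at the dorsal midline, had 2.13 and 1.55 TPM in fusion and 0.216 and 0 TPM in control libraries (log2 change 1.36, adjusted p = 0.00999; 2.01 and 0.0213 after rescaling). Hey1, a bHLH repressor that also answers to Notch, had 1.90 and 5.87 TPM in fusion and 28.2 and 22.9 TPM in control libraries (log2 change -2.56, adjusted p = 0.0142; -1.03 and 0.171 after rescaling).

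**Figure D4:**
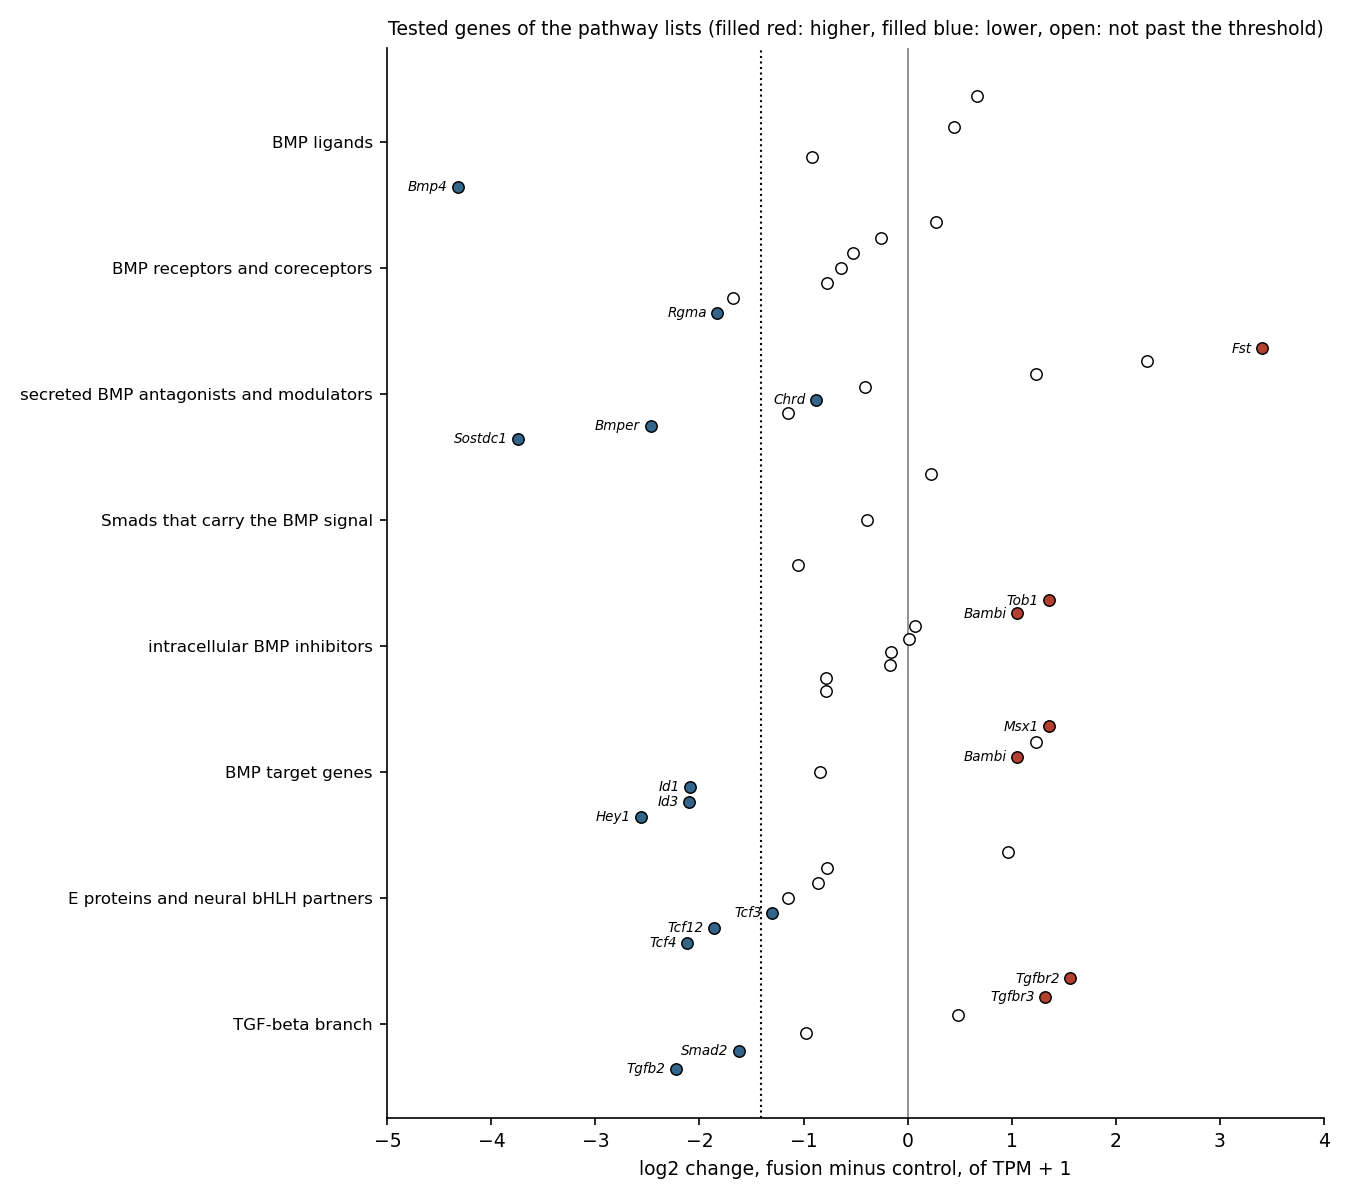
Log2 change of TPM + 1, fusion minus control, of the tested genes of 8 pathway lists; filled points passed the test and are named, open points did not, 1 gene is not drawn, and the dotted line marks the median of all tested genes (-1.41). Genes may stand on more than 1 list, and the places of Fst and Sostdc1, each listed at 0 in a group, depend on the added 1 TPM.

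The E proteins, which Id proteins bind, fell with the bulk of the genes. Of 8 tested E proteins and neural bHLH factors, 4 fell and 4 did not pass, where 51.3% of all tested genes were called lower. After rescaling none of the 8 was lower and 1 was higher, Hes1 (log2 change 2.59, adjusted p = 0.0140, limma). On the deposited scale Hes1 did not pass, with 20.1 and 19.8 TPM in fusion and 10.5 and 8.96 TPM in control libraries. Tcf12 had 24.1 and 26.4 TPM in fusion and 93.0 and 95.3 TPM in control libraries (log2 change -1.86, adjusted p = 0.00820, limma), and Tcf4 had 16.9 and 26.6 TPM in fusion and 72.1 and 127 TPM in control libraries (-2.12, adjusted p = 0.0140, limma). Tcf3 had 2.21 and 1.29 TPM in fusion and 4.95 and 6.54 TPM in control libraries (-1.30, adjusted p = 0.0498). After rescaling none of these 3 E protein genes passed, with adjusted p from 0.399 to 0.956. Olig1 had 77.2 and 96.7 TPM in fusion and 153 and 242 TPM in control libraries and did not pass (adjusted p = 0.0517). Set against Id2, the ratio of Id2 to Tcf12 was 5.34 and 12.5 in fusion libraries and 3.74 and 4.15 in control libraries, and that of Id2 to Tcf4 was 7.60 and 12.4 in fusion and 4.83 and 3.12 in control libraries. The ratio of Id3 to Tcf12 was 0.896 and 0.741 in fusion and 0.811 and 1.15 in control libraries, which overlap. In the TGF-beta branch, 2 of 6 tested genes rose and 2 fell, beside 4.95% and 51.3% of all tested genes. The receptor genes Tgfbr2 and Tgfbr3 rose, with 2.01 and 3.24 and with 1.28 and 3.24 TPM in fusion libraries, against 0.104 and 0.324 and 0.191 and 0.301 TPM in control libraries (adjusted p = 0.0113 and 0.0312; 0.0120 and 0.0170 after rescaling). The ligand gene Tgfb2 and the transducer gene Smad2 fell, with 0.172 and 3.03 and with 4.57 and 2.69 TPM in fusion libraries, against 7.56 and 11.2 and 10.7 and 15.7 TPM in control libraries (adjusted p = 0.0421 and 0.0339; 0.326 and 0.924 after rescaling). Tgfb2 did not pass without fusion replicate 1 (adjusted p = 0.0569), and Tob1 and Tcf3 did not pass without fusion replicate 2 (adjusted p = 0.0637 and 0.0789).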

How the data were processed

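The deposited table gives TPM per gene for 4 libraries. Per the submitters' processing notes, the authors used Trimmomatic 0.39 and Salmon 1.8.0 with GRCm38 (mm10); these notes do not name the annotation release or the step from transcripts to genes. Per the labels, full-length cDNA was amplified and sequenced with paired reads of 100 bases. TPM keeps no depth, so counting error cannot be given, and TPM is a share, so a large rise of some transcripts lowers the rest.

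The 12871 genes that reached 1 TPM in 2 or more libraries were tested with limma 3.58.1 in R 4.3.3 on log2(TPM + 1), fusion minus control, with a mean-variance trend, two-sided, and Benjamini-Hochberg adjustment over all tested genes (threshold 0.05). The added 1 TPM understates changes of low genes. Rescaling divided each library by its median ratio over 10965 tested genes found in all libraries. The fit was tested on simulated data. Coordinates come from GENCODE M21 (GRCm38), where 53307 of 54348 identifiers matched, and promoters from RefSeq (GRCm38.p6).

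The 10 genes and all lists were chosen with earlier results of these data known. Named from each pathway list were the genes past the threshold (at most 4, by size of change) and the 2 tested genes with the highest mean TPM. Other pathway genes, among them Bmpr1b and the genes listed at 0, were named after their values were seen. The values of 1 gene of the bHLH list are not reported here, though it stays in the counts. The 15 alternatives changed the pseudocount, filter, scaling, GC and length correction, variance model, block or libraries.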

Additional observations from a re-analysis of the deposited data

How the results depend on the processing

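All counts are from limma at an adjusted p under 0.05. Members of the set called higher (1) came to 0 with no filter (2 at an unadjusted p under 0.05) and to 0 with a mean of at least 5 TPM, where Bambi was not tested (0 unadjusted), and ran from 0 to 1 with 1 library left out. Those called lower (3) came to 1 with median ratio scaling, 1 with quantile normalization and 1 with GC and length correction, and ran from 0 to 5 with 1 library left out. Further pathway genes called higher (5) came to 1 with no filter, 2 with a mean of at least 5 TPM, 12 with median ratio scaling, 15 with quantile normalization and 16 with GC and length correction, and ran from 0 to 6 with 1 library left out. Those called lower (11) came to 5 with no filter, 7 with a mean of at least 5 TPM, 2 with median ratio scaling, 2 with quantile normalization, 6 without mitochondrial and ribosomal protein genes and 1 with GC and length correction, and ran from 1 to 17 with 1 library left out. All genes called higher (637) came to 353 with no filter, 405 with a mean of at least 5 TPM, 1846 with median ratio scaling, 1948 with quantile normalization, 1034 without mitochondrial and ribosomal protein genes and 1766 with GC and length correction, and ran from 14 to 1084 with 1 library left out. All genes called lower (6606) came to 2396 with median ratio scaling, 1955 with quantile normalization and 2117 with GC and length correction, and ran from 1025 to 7987 with 1 library left out. The log2 changes of Id2 (0.92, 0.17 and 0.51), Bmp7 (0.73, 0.78 and 0.73) and Bmpr1a (0.77, 0.79 and 0.34) turned positive with median ratio scaling, quantile normalization and GC and length correction, none past the threshold. Where a control library was left out, the remaining control library is assumed to vary like the fusion libraries. Counts at an unadjusted p are not given for those fits, in which 1 control library cannot show its own spread. With a replicate block, 1 of the set was higher and 3 were lower, and 642 and 6978 of all genes were called. Same-numbered libraries did not deviate together over all genes (r = -0.0398 across 12871 genes, which are not independent). With 1 difference a group, this cannot exclude a shared origin. The labels give them the same number and state no pairing, so they are not taken as pairs. The cause of these shifts was not tested. With TPM alone, depth sets no stated limit, and Id4, Smad6, Smad7 and Bambi, the lowest of the set, are the least certain.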
